A study of Homo sapiens with 9 samples.

Results

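MEOX2, its paralogue MEOX1 and AGMO, the protein-coding gene next to MEOX2 on chromosome 7, are described here as 3 of the 58336 genes of a table of nascent transcription. They were chosen from the levels themselves, because MEOX2 was near 0 in control cells and on in both knockout clones, so the levels of MEOX2 and of its neighbour are descriptions and support nothing further. Precision run-on sequencing (PRO-seq), which maps RNA polymerases engaged in transcription, was done in the human melanoma line MEL624. There were 3 groups of 3 libraries. PCIF1 KO1 and PCIF1 KO2, called KO1 and KO2 below, are a pair of clones in which PCIF1, the methyltransferase of cap-adjacent adenosines, was knocked out. Each KO group is therefore a single clone. The control is wild-type MEL624 with a random single guide RNA. All 3 groups were grown in the same medium, and Drosophila S2 cells were added to each sample as a spike-in.

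The authors' table gives 1 mean per group and not a value per library. No standard deviation or test can therefore be had, and no difference below has a replicate check. A level is a mean normalized count per gene, the authors' value per kb multiplied by their gene length. A difference is a log2 ratio after adding a pseudocount of 1, and the 17149 genes whose mean over the groups reached 10 counts were compared. Such a gene is called at least 2-fold off where its log2 ratio is 1 or more in size. PCIF1 itself had 270 counts in KO1, 239 in KO2 and 239 in control, and since nascent RNA of an edited gene can persist, these values do not check the labels. Of 8 melanocyte lineage markers, 2 were compared. The lineage regulator MITF had 142 counts in KO1, 259 in KO2 and 169 in control, but the neural crest factor SOX10 was listed at 0 in KO1, at 6.08 in KO2 and at 0 in control, and tyrosinase (TYR) was listed at 0 in all 3. PMEL, a melanosome fibril protein gene, had 21.3 counts in KO1, 23.8 in KO2 and 48.4 in control. It was at least 2-fold lower in KO1 (log2 ratio -1.15), where 1.32% of all compared genes were, and just short of that in KO2 (-0.997).

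MEOX2 and MEOX1 encode homeodomain transcription factors of the mesoderm. In the embryo they act in somites, the blocks of tissue that give rise to vertebrae and trunk muscle, and loss of MEOX1 in humans causes fused neck vertebrae. MEOX2, also called GAX, is known further from limb muscle, vascular smooth muscle and endothelium, where it has been described as restraining cell proliferation. AGMO encodes alkylglycerol monooxygenase, a membrane enzyme that cleaves the ether bond of alkylglycerols with tetrahydrobiopterin as cofactor.

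MEOX2 (ENSG00000106511; GRCh38, chromosome 7, 15611212 to 15686683, minus strand) had 167 mean normalized counts in KO1 and 165 in KO2, against 1.02 in control. Both clones were high and nearly level with each other, with a log2 ratio of -0.02 for KO2 over KO1. Against control the log2 ratios were 6.37 in KO1 and 6.36 in KO2, which ranked 2 and 7 among the 17149 compared genes. These ratios rest on a control value close to nothing and depend on the pseudocount. Among genes shorter than 1500 nt, the smallest nonzero means clustered between 0.252 and 0.341 in KO1, between 0.330 and 0.352 in KO2 and between 0.342 and 0.382 in control, the size that 1 read in 1 of the 3 libraries would have. In those steps MEOX2 held 489 to 661 reads in KO1 and 468 to 499 in KO2, against 2.68 to 3.00 in control, each over 3 libraries together. How these reads were spread over the 3 libraries of a group is unknown.

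Per kb of gene length, MEOX2 was at 66.7 in KO1 and 65.9 in KO2, against 0.41 in control. That level exceeded 80.7% of the 12525 compared protein-coding genes in KO1 and 79.6% in KO2, against 0.327% in control. On this scale MEOX2 was in the upper part of the range of transcribed genes in both clones and near its bottom in control. The authors' length for MEOX2 was 2500 nt, close to the 2371 nt of its merged exons and far below the span of the gene. Whether reads from introns were counted is unknown, so the place among other genes holds only for this length.

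AGMO (ENSG00000187546; chromosome 7, 15200317 to 15562015, minus strand) had 49.8 counts in KO1 and 72.7 in KO2, against 10.8 in control. It was low but transcribed in control and higher in both clones, with log2 ratios of 2.11 in KO1 and 2.65 in KO2 (ranks 91 and 74). KO2 over KO1 was 0.54, against an SD of 0.47 of the same ratio over 5062 genes of like count, so the clones lay apart by about that spread. Per kb, AGMO was at 13.9 in KO1 and 20.3 in KO2, against 3.00 in control. In each of the 2 clones it lay below MEOX2 per kb, and in control above it. The authors' length for AGMO was 3587 nt, also close to its merged exons, so the same limit holds for this comparison.

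MEOX1 (ENSG00000005102; chromosome 17, 43640389 to 43661922, minus strand) had 1.06 counts in KO1 and 0.325 in KO2, against 0.758 in control. All 3 values amount to a few reads, 3.09 to 4.18 in KO1, 0.923 to 0.984 in KO2 and 1.98 to 2.22 in control, and MEOX1 was not compared. At this depth transcription of MEOX1 was not detectable above a few reads in any group. Its nearest compared neighbours on chromosome 17 were transcribed in all groups. DHX8, an RNA helicase gene, had 292 counts in KO1 and 319 in KO2, against 332 in control, and the phosphatase gene DUSP3 had 329 in KO1 and 356 in KO2, against 364 in control. ETV4, an ETS factor gene, lies near MEOX1, and its relative ETV1 lies on the chromosome 7 side of MEOX2 that holds AGMO. ETV4 had 329 counts in KO1 and 360 in KO2, against 351 in control, and ETV1 had 299 in KO1 and 298 in KO2, against 309 in control. Of the 3 chosen genes, 2 passed the filter on low counts. MEOX2 passed it through the clones alone, whereas AGMO had 10.8 counts in control itself.

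**Figure D1:**
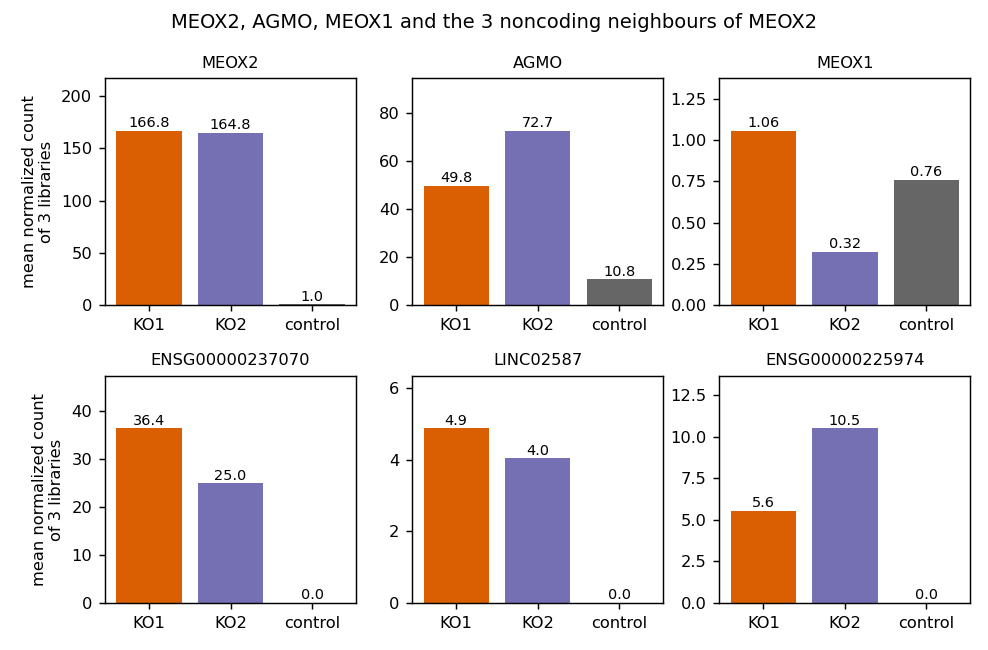
Mean normalized count (y axis, linear, from 0, with its own scale in each panel) of MEOX2, AGMO, MEOX1 and 3 noncoding neighbours of MEOX2 in KO1, KO2 and control; each bar is the authors' mean of 3 libraries, so there is no error bar. MEOX2 stands at 167 and 165 in the clones and at 1.02 in control, and the 3 noncoding genes are listed at 0 in control.

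Higher values in both clones extended to the annotated genes on each side of MEOX2. Taken along chromosome 7, a run of 5 adjacent entries had log2 ratios of at least 1 in both clones with no filter on low counts, from AGMO at 15200317 to the end of LINC02587 at 15696892, a span of 497 kb. ENSG00000237070, a long noncoding RNA on the plus strand, had 36.4 counts in KO1 and 25.0 in KO2 and was listed at 0 in control. LINC02587, a noncoding RNA that starts 1695 nt from the MEOX2 start on the opposite strand and so points away from it, had 4.88 counts in KO1 and 4.05 in KO2 and was listed at 0 in control. ENSG00000225974, on the minus strand within LINC02587, had 5.55 counts in KO1 and 10.5 in KO2 and was listed at 0 in control. All 3 noncoding entries were thus above 0 in the clones alone, and the last 2 were under the filter.

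ENSG00000237070 (chromosome 7, 15667947 to 15681980) lies wholly inside the MEOX2 gene, between MEOX2 exon 1 (15685886 to 15686683) and exon 2 (15626746 to 15626918). Its 4 exons share 0 bases with MEOX2 exons. PRO-seq reads also come from introns, and whether the authors' counting used strand is not given in the sources used here, so reads of MEOX2 and of this antisense entry cannot be told apart. The same holds for LINC02587 and ENSG00000225974. Per kb of the authors' length, ENSG00000237070 was at 9.73 in KO1 and 6.68 in KO2, below the value of MEOX2 in both.

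The upstream sequences of MEOX2, AGMO and LINC02587 are shown because these entries were higher together. Each is the 250 bases before the RefSeq start (GRCh38.p14), 5′ to 3′ on the gene's own strand, at chr7:15686684-15686933 (minus), chr7:15562016-15562265 (minus) and chr7:15688128-15688377 (plus) in that order, with CG dinucleotides in capitals.
MEOX2: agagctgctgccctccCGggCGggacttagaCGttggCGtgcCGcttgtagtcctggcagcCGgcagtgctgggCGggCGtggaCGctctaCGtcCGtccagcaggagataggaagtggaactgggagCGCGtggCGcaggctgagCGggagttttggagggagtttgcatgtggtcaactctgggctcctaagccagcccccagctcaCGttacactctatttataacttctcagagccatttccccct
AGMO: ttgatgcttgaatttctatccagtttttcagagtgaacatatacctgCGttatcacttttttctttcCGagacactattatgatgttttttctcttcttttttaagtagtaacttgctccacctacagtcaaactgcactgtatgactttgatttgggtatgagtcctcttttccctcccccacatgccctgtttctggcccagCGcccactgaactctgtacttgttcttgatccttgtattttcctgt
LINC02587: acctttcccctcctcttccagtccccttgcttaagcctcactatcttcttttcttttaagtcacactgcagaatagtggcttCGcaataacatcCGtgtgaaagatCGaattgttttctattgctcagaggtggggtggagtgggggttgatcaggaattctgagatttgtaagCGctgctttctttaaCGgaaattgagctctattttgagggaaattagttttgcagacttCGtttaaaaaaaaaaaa
The MEOX2 window held 16 CG dinucleotides, the AGMO window 3 and the LINC02587 window 6, where the median over 35116 RefSeq windows of this length was 11. The windows had 61.2%, 40.4% and 40.8% G or C. The 3 sequences thus differed in this feature, with MEOX2 above the median and AGMO and LINC02587 below it. Of all windows, 59.0% held fewer CG than that of MEOX2, 22.9% fewer than that of AGMO and 38.1% fewer than that of LINC02587.

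Beside CG, 4 motifs were searched on both strands. The TATA box core TATAAA occurred once among these windows, in that of MEOX2. It stands on the opposite strand and its stretch begins 29 bases before the start, and 10.7% of all windows hold it. The GC box core GGGCGG, which contains a CG, occurred at 2 places in the MEOX2 window and in neither of the others, and 42.6% of all windows hold it. The core that homeodomains of this class bind, TAATTA, was in none of the windows shown and is in 4.35% of all windows. The CCAAT box core, spelled CCAAT, was also in none of them and is in 32.0% of all windows. A match of letters does not show a bound site.

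Beyond the run, transcription next to MEOX2 was sparse. On the far side of LINC02587 the pseudogene RPL36AP26 was listed at 0 in all groups. Farther on that side, ANKMY2, an ankyrin repeat protein gene 913 kb from MEOX2, had 165 counts in KO1 and 173 in KO2, against 141 in control. On the far side of AGMO the diacylglycerol kinase gene DGKB was under the filter, with 0.569 counts in KO1 and 5.13 in KO2, against 6.74 in control. The nearest compared gene beyond it was ETV1, 1620 kb from MEOX2, whose values given above lay within 1.5-fold of each other. ANKMY2 on one side and ETV1 on the other were thus near their control level, although many entries closer to the run were silent.

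Within 5 Mb on each side, 107 annotated genes other than MEOX2 were in the table, 40 were 0 in all groups and 30 were compared. Of these 30, 4 were at least 2-fold higher in KO1 and 0 lower, where 2.27% of all compared genes were higher and 1.32% lower. In both clones alike, 4 were higher, where 1.66% of all compared genes were. In KO2, 5 were at least 2-fold higher and 0 lower, where 3.34% were higher and 1.9% lower over all compared genes. Within 1.5-fold of control were 24 in KO1 and 25 in KO2. The region was part of the choice of genes, so no excess is read from these counts.

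AGMO and ENSG00000237070 were among the higher genes in both clones. SCIN, an actin-severing protein gene 2951 kb away, had 22.8 counts in KO1 and 21.3 in KO2, against 5.81 in control. LINC02888, a noncoding RNA 1688 kb away on the other side, had 18.1 counts in KO1 and 18.5 in KO2, against 7.73 in control. TWIST1, a mesodermal helix-loop-helix factor gene 3334 kb away, had 223 counts in KO1 and 411 in KO2, against 201 in control, and passed 2-fold in KO2 with a log2 ratio of 1.03, which was 0.99 under quantile normalization. The calls of SCIN were lost per kb (0.98 in KO1 and 0.92 in KO2) and those of LINC02888 with a pseudocount of 5 (0.86 in KO1 and 0.89 in KO2). Apart from TWIST1, abundant genes of the region lay closer to control. PHF14 had log2 ratios of 0.19 in KO1 and 0.44 in KO2, POLR1F 0.37 and 0.39, and SNX13 -0.05 and -0.17. The aryl hydrocarbon receptor gene AHR had 581 counts in KO1 and 623 in KO2, against 513 in control, and the translation regulator gene BZW2 had 1044 in KO1 and 1196 in KO2, against 992 in control.

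The median log2 ratio of the 30 genes was 0.21 in KO1 and 0.25 in KO2, against -0.00 in KO1 and -0.00 in KO2 over all compared genes. Without AGMO and ENSG00000237070 the other 28 had medians of 0.19 in KO1 and 0.20 in KO2. Over the 806 compared genes of chromosome 7 the medians were -0.00 in KO1 and -0.02 in KO2. The neighbours within 5 Mb thus had medians slightly above control in both clones, far smaller than the ratios of MEOX2 or AGMO. Copy number of the region was not measured here.

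**Figure D2:**
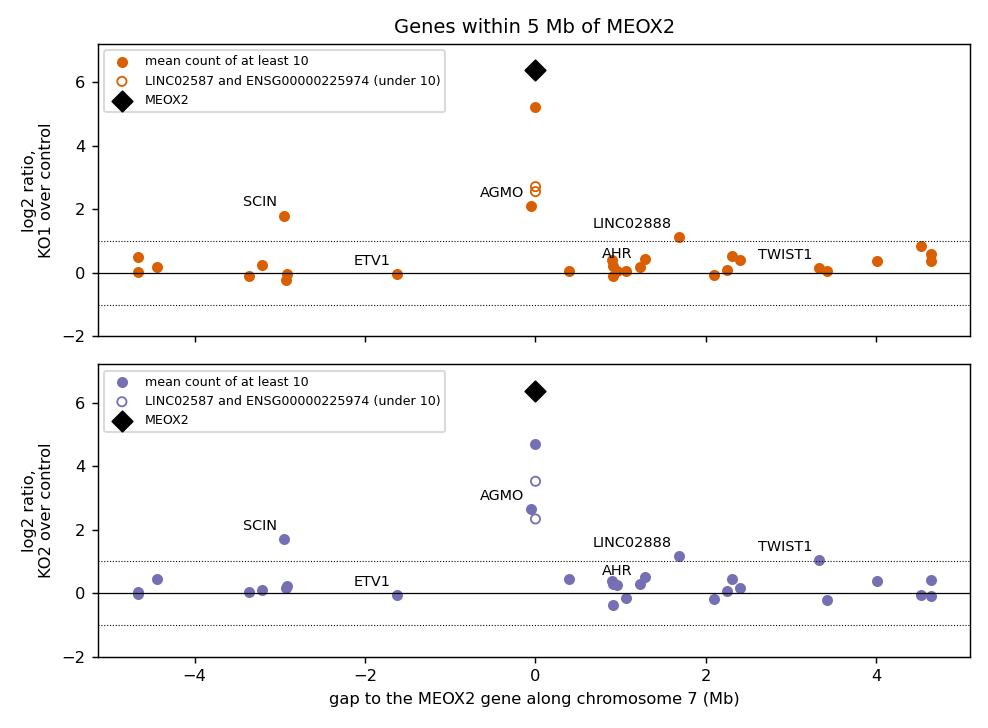
Log2 ratio over control (y axis; KO1 in the upper panel, KO2 in the lower) against the gap to the MEOX2 gene along chromosome 7 in Mb, negative toward lower coordinates; dots are compared genes, rings are 2 entries under the filter, and dotted lines mark 2-fold. MEOX2 at 6.37 and 6.36 and its adjoining entries stand above the other genes of the region, whose highest ratios are 1.80 in KO1 and 1.71 in KO2.

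Lists of related genes follow, and each count is to be read against all compared genes, of which 2.27% were higher and 1.32% lower in KO1, and 3.34% were higher and 1.9% lower in KO2. In lists this short those shares amount to about 1 gene or fewer, so a count of 0 or 1 tells nothing apart from the background. Homeobox genes encode the DNA-binding domain shared by developmental regulators, and the HOX genes specify position along the body axis. Of 39 HOX genes, 31 were compared, and 2 were at least 2-fold higher in KO1 (6.45%, against 2.27% of all compared genes) and 3 in KO2 (9.68%, against 3.34%), with 0 lower in either. HOXD10 had 35.9 counts in KO1 and 42.1 in KO2, against 12.7 in control. HOXB13 had 22.1 in KO1 and 21.0 in KO2, against 9.26 in control, and HOXD3, past 2-fold in KO2, had 20.8 in KO1 and 25.9 in KO2, against 10.9 in control. These were low members of the list, and with a pseudocount of 5 only the calls of HOXD10 held among them, while that of HOXB13 in KO2 was also lost per kb (0.95). HOXB13, at 9.26 in control, passed the filter only through the clones. Among HOX genes of high count, HOXB6 had 662 in KO1 and 691 in KO2, against 525 in control, HOXB2 had 581 in KO1 and 445 in KO2, against 577 in control, and HOXB9 had 311 in KO1 and 342 in KO2, against 295 in control. The median log2 ratio of the list was -0.00 in KO1 and 0.08 in KO2.

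Of 59 other homeobox genes of the same class, 16 were compared, and 1 (6.25%) was at least 2-fold higher in each clone, where 2.27% in KO1 and 3.34% in KO2 were over all compared genes. It was NKX2-4, an NK2-family factor gene, with 29.5 counts in KO1 and 83.4 in KO2, against 2.62 in control. It thus resembled MEOX2 in being near 0 in control and on in both clones, at unequal levels. Like MEOX2, NKX2-4 passed the filter through the clones alone. DLX4, a distal-less gene, was at least 2-fold lower in KO1, with 9.55 counts in KO1 and 15.0 in KO2, against 21.1 in control, a call lost with a pseudocount of 5 (-0.84) and per kb (-0.91). The cardiac factor gene NKX2-5 had 632 counts in KO1 and 630 in KO2, against 575 in control, and MSX1 had 406 in KO1 and 369 in KO2, against 393 in control. HHEX, a factor of liver and blood development, had 419 counts in KO1 and 534 in KO2, against 329 in control. The list's medians were 0.06 in KO1 and 0.10 in KO2.

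**Figure D3:**
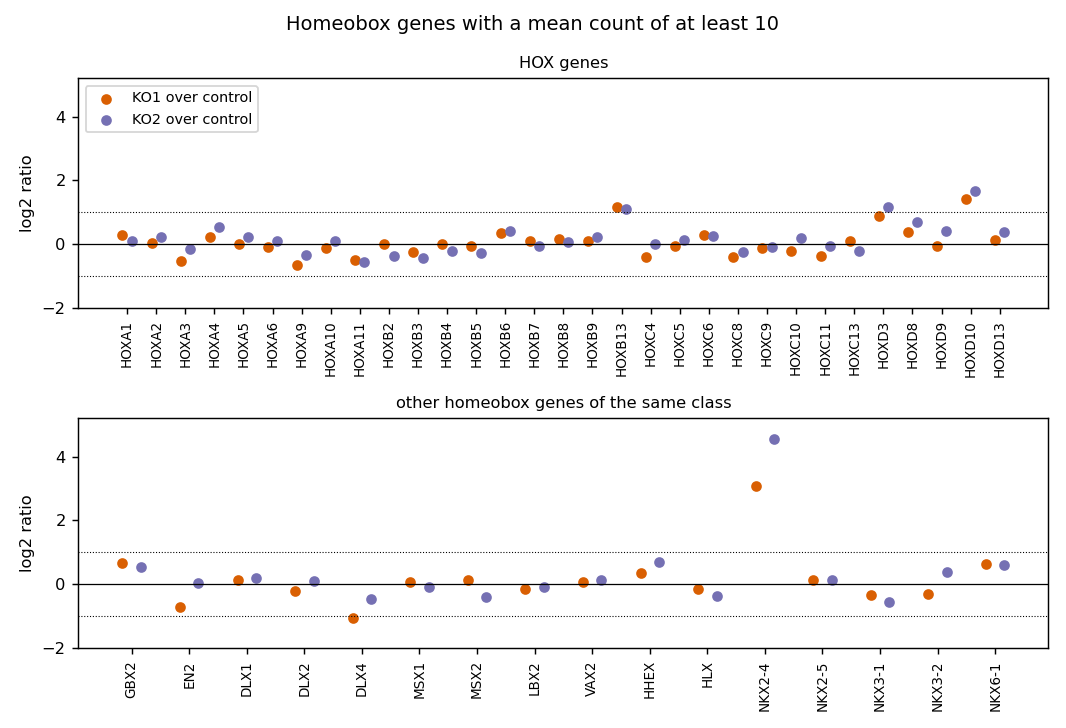
Log2 ratio over control (y axis) of each compared HOX gene (upper panel) and each other compared homeobox gene of the class (lower panel), for KO1 and KO2; each point comes from 2 group means. NKX2-4 stands apart at 3.08 in KO1 and 4.54 in KO2, and the other genes lie between -1.07 and 1.65.

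Genes that work beside MEOX2 in the paraxial mesoderm were compared next. Of 26 regulators of somites and their derivatives, 13 were compared, 0 were at least 2-fold off in KO1 and 1, TWIST1, was higher in KO2 (not under quantile normalization), which is 7.69% of the list, against 3.34% of all compared genes. PAX3, a paired-box factor of somites and of the melanocyte lineage whose protein binds MEOX proteins, had 287 counts in KO1 and 221 in KO2, against 152 in control. FOXC1, a forkhead factor gene, had 188 counts in KO1 and 194 in KO2, against 304 in control. The medians were 0.13 in KO1 and 0.25 in KO2. TCF15, the partner of MEOX2 in heart endothelium of mice, was not among the compared genes.

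Of 12 genes reported elsewhere to respond to MEOX2, 6 were compared and 0 were at least 2-fold off in either clone, which at the background shares given above says nothing particular to them. CDKN1A, the cell cycle inhibitor p21, had 957 counts in KO1 and 858 in KO2, against 959 in control. CDKN2A, which encodes the inhibitor p16, had 79.6 counts in KO1 and 77.3 in KO2, against 83.0 in control. The integrin gene ITGB5 had 229 counts in KO1 and 206 in KO2, against 244 in control, and the fatty acid-binding protein gene FABP5 had 302 in KO1 and 308 in KO2, against 286 in control. CXCL1 and ITGAV were higher than control in both clones, though less than 2-fold. The log2 ratios of CXCL1 were 0.81 in KO1 and 0.64 in KO2, the largest of the list's compared genes. Those of ITGAV were 0.36 in KO1 and 0.36 in KO2. The medians were 0.04 in KO1 and 0.00 in KO2. Nascent transcription alone does not say whether MEOX2 protein was made.

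Markers of endothelium, smooth muscle and fibroblasts, mesodermal cell types, were looked at beside MEOX2. Their summed levels were not higher in both clones than in control for any of the 3 lists. The sums rest largely on the few compared genes, and several defining markers were near 0 in all groups. The 8 endothelial markers summed to 117 counts in KO1, 67.3 in KO2 and 81.9 in control, and 1, TIE1, was compared, with 101 counts in KO1, 49.6 in KO2 and 69.2 in control. The endothelial cadherin gene CDH5 had 0.358 counts in KO1, 1.73 in KO2 and 1.43 in control, and CLDN5 was listed at 0 in all groups. The 6 smooth muscle markers summed to 135 in KO1, 176 in KO2 and 174 in control, with the smooth muscle myosin gene MYH11 at 0.483 in KO1, 0.966 in KO2 and 0 in control. The 3 compared members of the list were not alike in KO2. The smooth muscle actin gene ACTA2 had 26.9 counts in KO1, 51.7 in KO2 and 25.95 in control (log2 ratios 0.05 in KO1 and 0.97 in KO2), while TAGLN, an actin-binding protein gene, had 31.1 in KO1, 23.2 in KO2 and 36.0 in control, and the growth factor receptor gene PDGFRB had 75.5 in KO1, 99.99 in KO2 and 111 in control. The 7 fibroblast markers summed to 124 in KO1, 85.1 in KO2 and 98.4 in control, and THY1 was the largest part of each sum. THY1 had 64.5 counts in KO1, 36.1 in KO2 and 64.3 in control. The other compared members were higher in both clones, COL1A1 barely so in KO2. PDGFRA had 21.3 in KO1, 19.1 in KO2 and 13.2 in control, and COL1A1 had 27.8, 18.4 and 18.0. Decorin (DCN) was at 0.514 in KO1, 2.06 in KO2 and 0 in control, and COL1A2 at 0.335, 0.335 and 1.45. Under the filter, lumican (LUM) had 7.91 counts in KO1 and 7.10 in KO2, against 0.692 in control. Whether this difference is related to that of MEOX2 was not tested. Of these 21 markers, 0 of the 7 compared were at least 2-fold off in either clone, which at those shares says nothing particular to them.

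For AGMO, genes of its substrates and cofactor were compared. Of 14 genes of ether lipid synthesis and breakdown, 13 were compared, 0 were at least 2-fold off in KO1 and 1 was lower in KO2. It was TMEM86B, which encodes a lysoplasmalogenase, with 14.9 counts in KO1 and 13.3 in KO2, against 28.3 in control. That call (-1.04) was lost with a pseudocount of 5 (-0.86) and per kb (-0.96), and 1.9% of all compared genes were lower in KO2. GNPAT, the peroxisomal enzyme that begins ether lipid synthesis, had 204 counts in KO1 and 203 in KO2, against 150 in control. AGPS, which forms the ether bond, had 159 in KO1 and 150 in KO2, against 158 in control, and SELENOI, an ethanolamine phosphotransferase gene, had 559 in KO1 and 563 in KO2, against 519 in control. The medians were 0.01 in KO1 and 0.01 in KO2.

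Of 14 genes of tetrahydrobiopterin synthesis and use, 7 were compared, 0 were at least 2-fold off in KO1 and 1 was higher in KO2. It was GCH1, the rate-limiting enzyme of tetrahydrobiopterin synthesis, with 115 counts in KO1 and 132 in KO2, against 60.8 in control, and log2 ratios of 0.91 in KO1 and 1.10 in KO2, where 3.34% of all compared genes were higher in KO2. QDPR, which recycles the cofactor, had 226 counts in KO1 and 222 in KO2, against 234 in control. SPR, which completes synthesis, had 24.2 in KO1 and 38.7 in KO2, against 39.4 in control. The medians were -0.18 in KO1 and -0.03 in KO2.

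The 10 genes whose values were most like those of MEOX2 were found by Euclidean distance between log2(count + 1) in the 3 groups, over all entries with a symbol. They were, in order of distance up to 2.36 for the last, MGMT, FLRT2, MIR3667HG, ZNF677, ZNF844, RELN, PDE3B, SH3GL2, CYP2R1 and ADGRF1. MGMT repairs alkylated guanine in DNA, FLRT2 encodes an adhesion protein, RELN a secreted matrix glycoprotein, CYP2R1 a vitamin D hydroxylase and ADGRF1 an adhesion receptor. Their counts ran from 62.6 to 256 in KO1 and from 58.7 to 363 in KO2, against 0 to 7.56 in control. The next gene, PRKG1, lay at 2.41, so the list has no natural end. PDE3B and CYP2R1 are neighbours on chromosome 11, 5.40 kb apart. RELN is on chromosome 7 as MEOX2 is, on the other arm. With values per kb in place of counts, 3 of the 10 (MGMT, SH3GL2 and ZNF844) were again among the nearest 10.

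RefSeq upstream windows were at hand for 8 of the 10 (not for MIR3667HG and PDE3B). CG dinucleotides per 250 bases ranged from 2 in ADGRF1 to 43 in RELN, with 36 in MGMT, and 6 of the 8 genes exceeded the median of 11 in each of their windows. The share of all genes that do so was not counted, so no common feature is read from this. The MEOX2 window, with 16, was itself not far from the middle, as 59.0% of all windows held fewer.

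**Figure D4:**
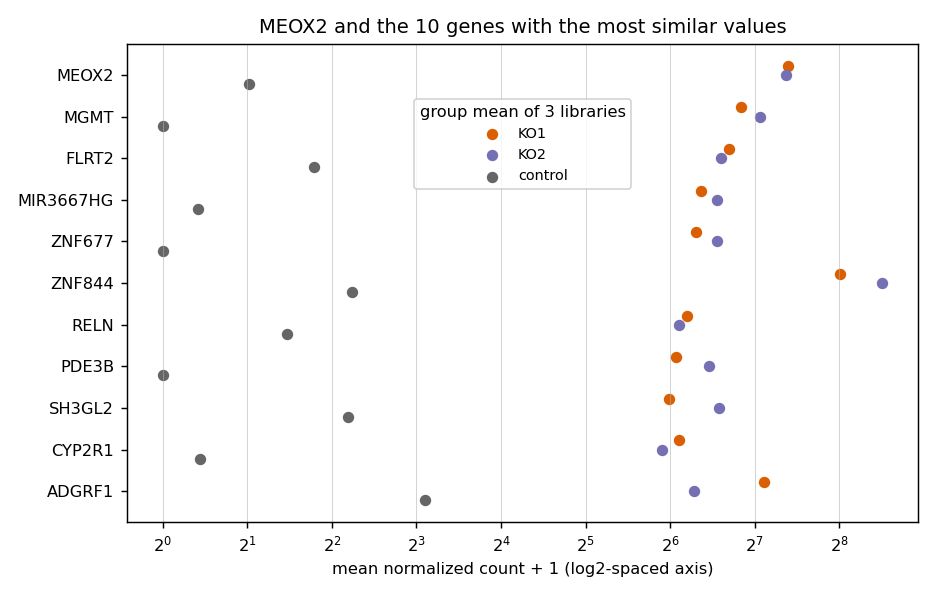
Mean normalized count + 1 (x axis, log2-spaced) of MEOX2 and the 10 genes nearest to it in KO1, KO2 and control; each point is the authors' mean of 3 libraries. In every gene shown the clones lie at 58.7 counts or more and control at 7.56 or less, which follows from how the genes were chosen.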

How the data were processed

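PRO-seq was carried out on 9 libraries of MEL624 cells, 3 each from clone KO1, clone KO2 and control. Per the file headers, the authors deposited 1 mean of normalized counts per group divided by gene length in kb, a signal that they had scaled and averaged over replicates before deposit. The tools in the submitters' processing notes are DESeq2, featureCounts, Bowtie 1.2.2 and cutadapt 1.14, and the builds GRCh38.p12, hg38 and dm3, without role or order. The sources used here do not give the counted feature, the strand setting or the use made of the spike-in. The design text gives an average of 50000000 mappable reads per sample, and the depth of each single library is unknown. The header has a name for a gene symbol that the rows lack. The deposited length, another column in bases per the file headers, equals the merged exon length of GENCODE release 44 for 64.4% of the 57754 identifiers found there, which supplied symbols and positions.

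Values were multiplied by length, and log2 ratios taken with a pseudocount of 1 for genes whose mean reached 10 counts. The planned moderated tests needed a value per library and were replaced by ratios without tests. No column of values was left unmapped. The 2-fold criterion was tested on simulated data. The members, gene lists and rules were chosen with earlier results of these data known. Named genes were the 3 members, neighbours by position, the 10 nearest to MEOX2 by distance of values, and in each list those at least 2-fold off and the 3 of highest count. Others (ETV4, DHX8, DUSP3, GNPAT, AGPS, SPR, CDKN2A, TCF15 and single markers) were named for their role or position, with their values known. CXCL1 and ITGAV were added so that each compared gene of their list is named. A gene of the region is not reported here. Python 3.11.15, numpy 2.4.6, pandas 2.3.3 and matplotlib 3.10.9 were used.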

Additional observations from a re-analysis of the deposited data

How the results depend on the processing

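No paired analysis was possible because the table holds 1 mean per group, and for the same reason no replicate could be left out. Under the alternatives run for them (pseudocounts of 0.5 and 5, median-of-ratios rescaling, quantile normalization and the scale per kb), MEOX2 and AGMO stayed at least 2-fold higher in both clones. The log2 ratio of MEOX2 was 6.78 in KO1 and 6.76 in KO2 with a pseudocount of 0.5, 4.83 and 4.82 with 5, and 5.59 and 5.57 per kb, which follows from its low control value. The neighbours at least 2-fold higher within 5 Mb numbered 8 in KO1 and 10 in KO2 with no filter, with 2 and 2 lower, and 0 in KO1 and 1 in KO2 with a floor of 50. In KO2, 3 were higher within 2 Mb, and 1 was lower within 10 Mb. Of the genes in all lists, 5 were at least 2-fold off in KO1 and 7 in KO2. These counts became 3 and 4 with a pseudocount of 5, 17 and 28 with no filter, and 0 and 2 with a floor of 50, where fewer genes were compared. The counts of lists and neighbours therefore rest mostly on genes under that floor, among them AGMO with a mean of 44.4. TWIST1 and GCH1, with means of 278 and 102, stayed called in KO2 above it.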

Other observations

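The nearest compared genes on each side of the 10 genes most like MEOX2 were looked at after the values were seen, to set beside the run at MEOX2. PDE3B and CYP2R1 neighbour each other, and their values follow from the choice. Of the 18 neighbours that were not themselves among the 10, 1 was at least 2-fold higher in both clones, where 1.66% of all compared genes were. It was ENSG00000258945, a long noncoding RNA 0.758 kb from FLRT2, with 22.4 counts in KO1 and 42.5 in KO2, against 9.12 in control. Next to it in ratio were ZNF788P beside ZNF844, with 514 counts in KO1 and 465 in KO2, against 259 in control (log2 ratios 0.99 and 0.84), and LINC02328 on the other side of FLRT2, with 14.8 in KO1 and 13.5 in KO2, against 7.23 in control (0.94 and 0.82). EPIC1 beside MIR3667HG had log2 ratios of 0.61 in KO1 and 0.76 in KO2, and ADAMTSL1 beside SH3GL2 had 0.72 in KO1 and 0.50 in KO2. Other neighbours went the other way. ZNF878, on the other side of ZNF844, had log2 ratios of 0.15 in KO1 and -1.09 in KO2. Lower in both clones within 2-fold were ZNF845 (-0.21 in KO1 and -0.51 in KO2), PSMC2 (-0.23 and -0.40) and BRD1 (-0.11 and -0.37). So were TNFRSF21 (-0.09 and -0.43) and MKI67 (-0.04 and -0.20). PSMA1, 0.169 kb from PDE3B, had 172 counts in KO1 and 169 in KO2, against 143 in control. ZNF818P, 20.9 kb from ZNF677, had 60.0 counts in KO1 and 8.51 in KO2, against 16.4 in control.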
